A study of Mus musculus with 24 samples.

Results

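The regions described here are stretches of chromatin that were open in WT mouse pre-pro-B and pro-B cells and had no called peak in WT small pre-B cells. Accessibility was measured by ATAC-seq, in which a transposase cuts open DNA, in B-cell progenitors sorted from bone marrow. Overlapping peaks of 24 libraries were joined to 159326 regions. A region was a member where a deposited peak lay in it in 4 of 4 WT pre-pro-B, 4 of 4 WT pro-B and 0 of 4 WT small pre-B libraries, which held for 2536 regions (1.59%). The 6 groups of 4 libraries each were the pre-pro-B, the pro-B and the small pre-B stage of Mki67-/- mice and the same stages of WT mice. Mki67 encodes Ki-67, which coats mitotic chromosomes and marks cycling cells. The labels give no age, sex or strain, do not say where the deletion lies, and leave unsaid if any mouse gave more than 1 library. P-values therefore measure the spread between libraries. "Closed" means below the authors' threshold for a peak, not that no DNA was cut.

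Pre-pro-B cells are early progenitors that still hold potential for other blood lineages, and pro-B cells rearrange the immunoglobulin heavy-chain genes and depend on the transcription factors Ebf1 and Pax5. Small pre-B cells have left the cell cycle after signalling through the pre-B-cell receptor and rearrange the light-chain genes. Regulatory elements open and close along this path as transcription factors bind or leave them.

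Members overlapped 155 promoters, counted as windows of 300 bp (250 bp before to 50 bp after an annotated start) of 143 genes. A few of these windows are printed as examples that differ in base composition and in behaviour without Ki-67. Sequences are from RefSeq on GRCm38.p6 (mm10), 5′ to 3′ on the gene's strand, with each CpG in capitals. Plac8, Ccl3 and Met are examples with a peak in 0 of 4 Mki67-/- small pre-B libraries and in 8 of 8 Mki67-/- pre-pro-B and pro-B libraries. Ctla2b kept a peak in 4 of 4, and Iftap was already without one in Mki67-/- pro-B cells. They were chosen after their values were seen.
Plac8, chr5:100572156-100572455, minus strand, 5 CpG: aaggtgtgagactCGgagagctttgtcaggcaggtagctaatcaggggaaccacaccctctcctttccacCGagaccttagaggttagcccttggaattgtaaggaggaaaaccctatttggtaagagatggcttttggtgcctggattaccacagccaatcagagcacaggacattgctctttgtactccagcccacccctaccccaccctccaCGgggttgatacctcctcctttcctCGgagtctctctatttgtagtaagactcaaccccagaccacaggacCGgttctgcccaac
Ccl3, chr11:83649329-83649628, minus strand, 3 CpG: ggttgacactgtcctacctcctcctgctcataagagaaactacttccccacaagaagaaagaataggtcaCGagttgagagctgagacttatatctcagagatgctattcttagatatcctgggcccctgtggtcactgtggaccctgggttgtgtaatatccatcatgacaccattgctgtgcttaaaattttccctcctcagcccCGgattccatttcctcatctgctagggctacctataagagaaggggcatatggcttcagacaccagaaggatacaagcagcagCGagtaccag
Met, chr6:17463707-17464006, plus strand, 34 CpG: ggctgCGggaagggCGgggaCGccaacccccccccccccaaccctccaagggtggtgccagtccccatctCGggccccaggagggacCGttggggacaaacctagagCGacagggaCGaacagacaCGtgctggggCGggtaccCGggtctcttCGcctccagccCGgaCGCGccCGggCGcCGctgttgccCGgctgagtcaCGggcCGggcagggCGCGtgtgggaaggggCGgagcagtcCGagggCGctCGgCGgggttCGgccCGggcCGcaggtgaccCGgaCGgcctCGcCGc
Ctla2b, chr13:60897398-60897697, minus strand, 3 CpG: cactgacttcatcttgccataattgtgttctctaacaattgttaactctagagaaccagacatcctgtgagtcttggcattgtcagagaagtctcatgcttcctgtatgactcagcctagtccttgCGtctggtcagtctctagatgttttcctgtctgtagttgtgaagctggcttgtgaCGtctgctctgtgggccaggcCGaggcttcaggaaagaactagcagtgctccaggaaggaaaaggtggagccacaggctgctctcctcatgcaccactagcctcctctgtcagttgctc
Iftap, chr2:101628982-101629281, minus strand, 5 CpG: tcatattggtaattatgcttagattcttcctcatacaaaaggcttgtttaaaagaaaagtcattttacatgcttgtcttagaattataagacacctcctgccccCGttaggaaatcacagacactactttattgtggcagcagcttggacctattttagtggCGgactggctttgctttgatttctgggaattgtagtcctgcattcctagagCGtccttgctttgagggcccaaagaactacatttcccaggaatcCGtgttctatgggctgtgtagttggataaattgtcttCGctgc
Ccl3 encodes a chemokine and Met the receptor of hepatocyte growth factor. Met, with 34 CpG, and Ccl3, with 3, both lacked a peak in the Mki67-/- small pre-B libraries. Over all 155 promoters, 62 had a peak in 0 of 4 of these libraries and 4 in 4 of 4.

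The rule used the 12 WT libraries, so WT values at the members are given as a description and were not tested. The Mki67-/- libraries were not used by the rule. Mki67 itself had a peak at its annotated start in 24 of 24 libraries, which does not check the deletion. The lists held 54387 to 88946 merged peaks. Read depth is unknown; a background coverage recovered from the peak statistics ran from 1.86 to 5.3 and stands in for it. Within 10 kb of 6 B-lineage marker genes (Ebf1, Pax5, Cd79a, Vpreb1, Igll1 and Il7r), Mki67-/- libraries had 37 to 50 peaks in pre-pro-B, 78 to 88 in pro-B and 56 to 85 in small pre-B cells. The same count in WT libraries was 49 to 53, 80 to 90 and 64 to 78. None of the member regions lay within 10 kb of Mki67, and 36 (1.42%) lay within 10 Mb of it.

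Most members lay away from promoters, as did most of all regions. Of the 2467 members on chromosomes whose gene starts were used, 186 (7.54%) lay within 1 kb of a start, 1283 (52.0%) elsewhere in a gene and 998 (40.5%) between genes. Over all regions the shares were 9.28, 49.7 and 41.0%, near those of the members. Regions open in all 12 WT libraries lay at a start in 30.4% of cases, and regions open only in pre-pro-B or only in pro-B cells in 2.46% and 3.91%. The median member was 778 bp wide, against 966 bp for regions open in all 3 stages. The 155 promoter windows held a median of 12 CpG dinucleotides, against 22 in promoters open in all 3 stages and 13 in all 21020 promoters of the reference table.

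**Figure D1:**
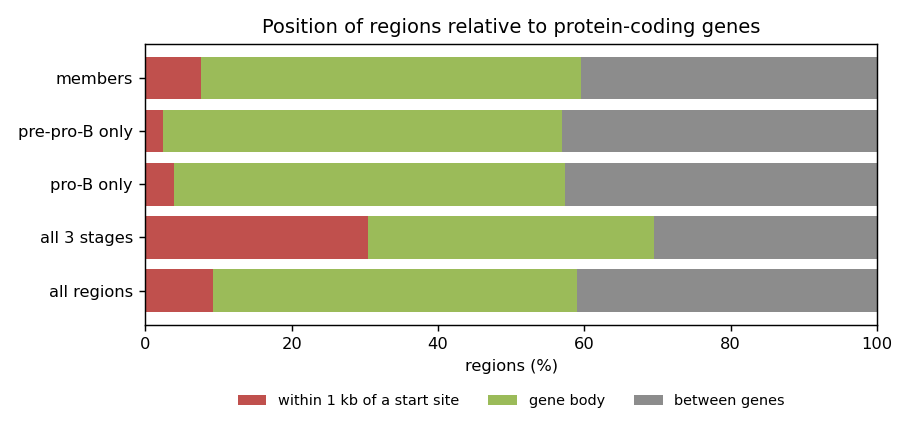
Position of regions relative to protein-coding genes, as the percent of regions within 1 kb of a start site, elsewhere in a gene body and between genes. The start-site part is 7.54% for members, 9.28% for all regions and 30.4% for regions open in all 3 stages.

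Short motifs were searched in the same windows on both strands, 11 in all, of which the 8 with fewer than 8 letters are given. The E-box CAGGTG, which E proteins such as E2A can bind, was in 42 of the 155 member promoters (27.1%), in 17.3% of promoters open in all 3 stages and in 19.9% of all promoters. The ETS motif CCGGAA was in 10 (6.45%), against 30.8% and 18.9%. GAGGAA, the core bound by PU.1, was in 48 (31.0%), against 25.2% and 27.2%. The NF-Y motif CCAAT was in 40 (25.8%), against 38.7% and 38.5%, and the SP1 motif GGGCGG in 79 (51.0%), against 68.7% and 46.6%. The RUNX motif TGTGGT was in 14.8%, against 11.8% and 14.7%, the GATA motif AGATAA in 8.39%, against 5.32% and 9.69%, and the MYC E-box CACGTG in 5.81%, against 10.8% and 7.91%. These are counts of letters, not of bound sites, and the ETS, SP1 and MYC motifs themselves contain a CpG.

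In each Mki67-/- progenitor library most members were open. Peaks were found at 2428, 2500, 2472 and 2147 members in the 4 Mki67-/- pre-pro-B libraries and at 2442, 2298, 2469 and 2384 in the 4 Mki67-/- pro-B libraries. The lowest of these was replicate 4 of pre-pro-B, whose background coverage was 1.86, against 3.38 to 4.17 in the other replicates. A peak in 8 of 8 Mki67-/- progenitor libraries was found for 1815 members (71.6%). Members had a peak in 84.7 to 98.6% of cases per Mki67-/- pre-pro-B library and in 90.6 to 97.4% per pro-B library. For regions open in all 3 WT stages the ranges were higher, at 94.0 to 99.5% and 96.7 to 98.7%.

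In Mki67-/- small pre-B cells the members were closed in part. The 4 libraries had a peak at 199, 1164, 586 and 997 members, or 7.85, 45.9, 23.1 and 39.3%. All 4 lay below each of the 8 Mki67-/- progenitor libraries, the lowest of which was at 84.7%, and they differed from each other by more than the progenitor libraries did. Merged peaks in these 4 libraries numbered 54387, 71346, 64583 and 70874, and their background coverage was 1.86, 2.79, 2.6 and 3.06, so the library with fewest members was also the one with the lowest coverage. Their B-lineage marker peaks numbered 56, 79, 62 and 85, and peaks near 5 marker genes of T, NK and innate lymphoid cells 6, 16, 12 and 16. Replicate 1 was lowest, or tied for lowest, in all 7 marker lists counted. Peaks near 4 small pre-B marker genes numbered 31 to 37 in Mki67-/- small pre-B and 29 to 34 in Mki67-/- pro-B libraries. Their sum thus did not separate the stages. Of the 4 genes only Spib did, with 9 to 10 peaks in Mki67-/- small pre-B and 7 to 8 in Mki67-/- pro-B libraries. The ranges of Il2ra, Cd2 and Irf4 overlapped. The part of depth, list length and these markers in the spread was not tested.

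**Figure D2:**
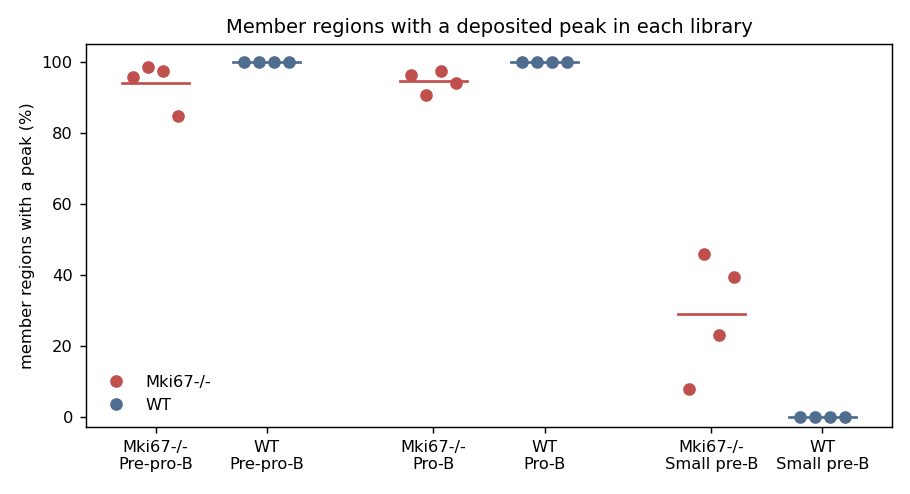
Percent of the 2536 member regions with a deposited peak in each library (points) and the mean of each group (line), by stage and genotype. WT libraries are at 100% or 0% by the rule; Mki67-/- small pre-B libraries lie between 7.85% and 45.9%.

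The same step was tested across all regions in the 12 Mki67-/- libraries, with the 4 small pre-B libraries against the 8 of both earlier stages, by an exact two-sided permutation test on the share of libraries with a peak and with Benjamini-Hochberg adjustment over 86780 regions. Of the members, 2527 had a peak in at least 4 of the 12 libraries and entered the test, and 9 did not. No member and no other region passed (0% of all tested regions), since the smallest possible p of 0.00202 was reached by 2611 regions and corresponds to an adjusted p of 0.0671 in this exact permutation test. At an unadjusted exact p under 0.05, 1306 members (51.5% of 2536) were lower in small pre-B libraries and 0 were higher, against 3.36% of all tested regions that were lower. A peak in 0 of 4 small pre-B and 8 of 8 progenitor libraries was found for 656 members (25.9%), against 1.32% of all tested regions. The median difference in share was -0.75 over the members that were tested and 0 over all tested regions.

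The lack of calls depended on the list length. With the 40000 strongest peaks of each library, the rule gave 1069 members, and 372 of them (34.8%) passed as lower in Mki67-/- small pre-B libraries at an adjusted p of 0.0417 by the same exact permutation test, against 1.2% of all regions tested in those lists. Regions and members were rebuilt from these shortened lists, and absence there means no peak among the 40000 strongest. The region in Jak1 and the one nearest Pik3r1, though 302320 bp from it, passed there. Both had a peak in 3 of 4 Mki67-/- small pre-B libraries in the full lists.

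Member by member, 1075 (42.4%) had a peak in 0 of 4 Mki67-/- small pre-B libraries, 567 (22.4%) in 1, 438 (17.3%) in 2, 321 (12.7%) in 3 and 135 (5.32%) in 4. Over all 36964 regions in 8 of 8 WT progenitor libraries, members included, 3.58% had a peak in 0 of 4 and 81.6% in 4 of 4. The count of members with a peak in 4 rested on 1 library: without replicate 1 of Mki67-/- small pre-B, 422 members had a peak in all of the other 3. Where these libraries had a peak at a member, it stood late in the list. Its median place was at the top 89.7, 82.3, 87.7 and 84.1% of the list by -log10 q, where 100% is the weakest peak, against 44.7 to 57.5% in the Mki67-/- progenitor libraries.

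The mirrored rule, applied to the Mki67-/- libraries and read in the WT ones, gave 1144 regions. The 656 regions found by both rules were 25.9% of the WT-rule members and 57.3% of the Mki67-/- rule regions. Of the 1144, 1007 (88.0%) had a peak in 0 of 4 WT small pre-B libraries and 4 (0.350%) in 4 of 4. Thus 42.4% of the WT-rule members were without a peak in the other genotype's small pre-B libraries, against 88.0% of the regions of the mirrored rule. Each rule fixes its own genotype at 0, so these shares were set side by side and not tested.

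**Figure D3:**
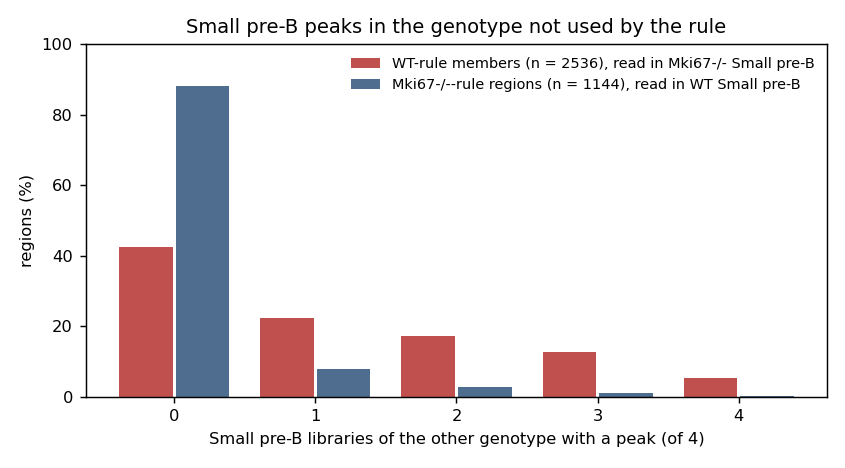
Percent of regions by the number of small pre-B libraries (0 to 4) with a peak in the genotype that the rule did not use. Bars at 0 stand at 42.4% for WT-rule members read in Mki67-/- libraries and at 88.0% for Mki67-/- rule regions read in WT libraries.

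To read a WT library that had not chosen the regions, the rule was applied with 1 WT small pre-B library left out. Mki67-/- small pre-B libraries had a peak at 8.45 to 49.1% of the regions chosen in this way. The left-out WT library had one at 10.5, 4.12, 5.58 and 11.3% of them. Replicates 2, 3 and 4 of Mki67-/- small pre-B cells were above every left-out WT library, at 24.3% or more, while replicate 1 lay within the WT range at 8.45 to 9.44%. In the reverse reading, the left-out Mki67-/- small pre-B libraries had a peak at 1.72, 27.2, 6.99 and 20.7% of the regions, and WT libraries at 2.75 to 12.1%.

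The members were set beside other stage patterns, since a region open at both earlier stages could follow either. In the 4 Mki67-/- small pre-B libraries, the 5161 regions open only in WT pro-B cells had a peak in 6.57, 45.7, 21.1 and 38.4% of cases, close to the 7.85, 45.9, 23.1 and 39.3% of the members in each library. The 16375 regions open only in WT pre-pro-B cells had one in 0.128, 0.806, 0.763 and 0.959%. Regions open in all 3 WT stages had one in 93.9 to 99.6%, and the 1980 regions open only in WT small pre-B cells in 56.9 to 83.6%. In each library the members lay slightly above the pro-B-only regions and far above the pre-pro-B-only regions. These differences between sets were not tested.

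**Figure D4:**
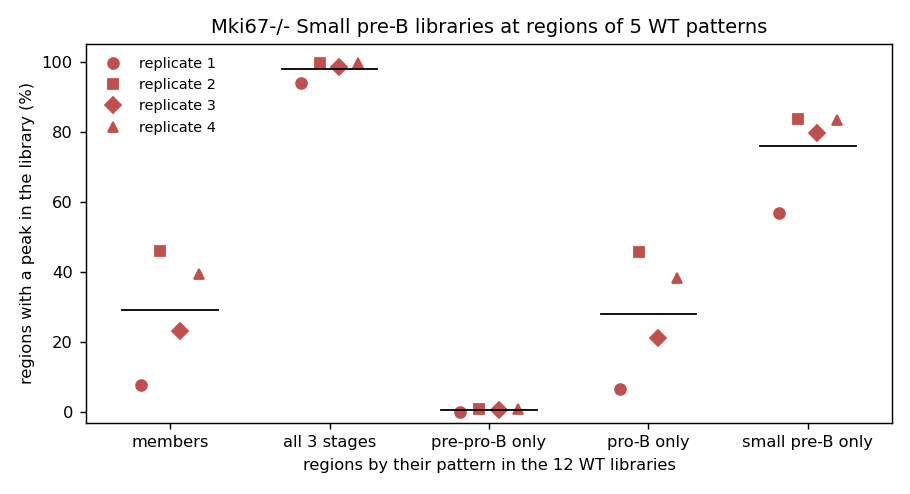
Percent of regions with a peak in each Mki67-/- small pre-B library (symbols by replicate, line at the mean), for regions grouped by their pattern in the 12 WT libraries. Members and pro-B-only regions take nearly the same values in each library, and pre-pro-B-only regions stay under 1%.

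Members that stood earlier in the pro-B lists had a peak in more Mki67-/- small pre-B libraries. Members were ranked by their mean place in the 4 WT pro-B lists. Among the strongest 634 (top 7.34 to 46.5%), 46 members (7.26%) had a peak in 0 of 4 Mki67-/- small pre-B libraries and 104 (16.4%) in 4 of 4. Among the weakest 634 the numbers were 423 (66.7%) and 3 (0.473%). Ranked by the WT pre-pro-B lists instead, the share with a peak in 0 of 4 was 41.0 to 44.0% in each of 4 such sets. Across the 2536 members, Spearman's rho between the number of Mki67-/- small pre-B libraries with a peak and the place in the list was -0.565 for pro-B and -0.0290 for pre-pro-B, where a negative value means that stronger members were found more often. These are descriptions over regions that share the same libraries, and the WT libraries used for ranking also chose the members. In the Mki67-/- pro-B lists, which the rule did not use, the median of the mean place was 69.7% for members with 0 small pre-B peaks. For members with a peak in 4 of 4 it was 26.7%.

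**Figure D5:**
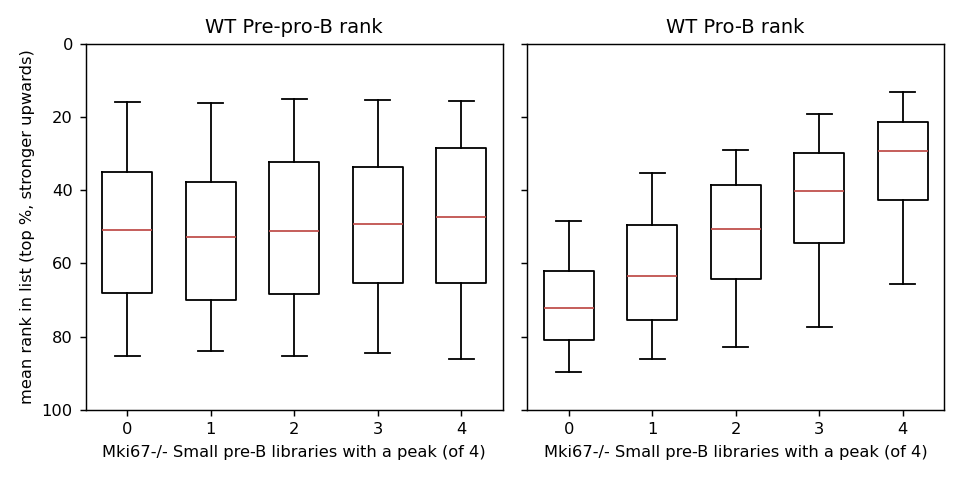
Mean place of members in the WT pre-pro-B lists (left) and WT pro-B lists (right), in top percent of the list with the strongest at the top, by the number of Mki67-/- small pre-B libraries with a peak. Boxes are quartiles and whiskers the 5th to 95th percentile; the pro-B median moves between 72.2% at 0 libraries and 29.3% at 4, and the pre-pro-B median stays between 47.4% and 52.9%.

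Members were of middling strength in the progenitors, with a median place at the top 56.0% of the 8 WT progenitor lists, against 27.4% for regions open in all 12 WT libraries. Just outside the rule, 881 regions open in 8 of 8 WT progenitor libraries had a peak in 1 of 4 WT small pre-B libraries. Their median place was at 53.8%, close to that of the members, and Mki67-/- small pre-B libraries had a peak at a mean of 50.6% of them, against 29.0% of the members. A further 1120 regions had no WT small pre-B peak but were found in 7 of 8 WT progenitor libraries, with a median place of 68.9%. In the 1815 members with a peak in 8 of 8 Mki67-/- progenitor libraries, the place in the list was earlier in all 4 pro-B than in all 4 pre-pro-B libraries for 344 (19%), against 21.3% of all regions with 8 peaks. It was later for 606 (33.4%), against 33.6%. Both shares are near the background. Lists differ in length and were called separately, so a place in one list against another shows no change in accessibility, here and for the regions below.

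Of the strongest members in WT progenitors, 9 are reported. They lay in Tox2 and Tuba8 and nearest Cmklr1, Slc20a1, P2rx7, Pik3r1, Traf2, Serpinb1b and Ppcdc, and 8 of them had a peak in at least 3 Mki67-/- small pre-B libraries. The region in Tox2, which encodes an HMG-box protein, lay 3419 bp from the start (chr2:163228873-163229865). It stood at the top 3.3, 5.7, 5.4 and 4.9% of the Mki67-/- pre-pro-B lists and at 12.6, 18.4, 15.4 and 17.2% in pro-B. In small pre-B cells it was absent from replicate 1 and stood at 45.1, 60.4 and 42.1% in the other 3. The WT range was 4.1 to 6.2% in pre-pro-B and 17.6 to 22.8% in pro-B cells. Its place was thus later in the list at each later stage, with no overlap between stages. The share of all regions with that order was not counted. The presence of a peak did not pass the exact permutation test (3 of 4 against 8 of 8, p = 0.333, adjusted p = 0.757).

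The members near Traf2 and Cmklr1 had a peak in all 12 Mki67-/- libraries, so the exact permutation p was 1. Traf2 encodes an adaptor of tumour necrosis factor receptors, and the member 2066 bp from it stood at 8.5, 10.4, 9.2 and 10.4% in Mki67-/- pre-pro-B, at 17, 18.2, 18 and 19% in pro-B and at 65.5, 44.6, 40.9 and 54.9% in small pre-B lists. Near Cmklr1, a chemerin receptor gene, the places were 20.5, 15.2, 18.3 and 23.1%, then 8.2, 13.4, 10.2 and 12.2%, then 86.1, 32.7, 65.5 and 47.5% in the order of the stages. Both stood later in each small pre-B list than in any progenitor list, and neither was called in any WT small pre-B library. Members were chosen for that lack of a WT peak, and how many of all regions stood later in this way was not counted.

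Among members open in all 12 Mki67-/- libraries, those with the strongest small pre-B peaks lay in Hk1, Aldh1a3 and Adcy9, at the start of Ctla2b and nearest Serpinb1b, Cryba4, Traf2 and Cdc42ep3. The region 18376 bp from Serpinb1b, a serine protease inhibitor gene, was at 86.1, 21.8, 36.8 and 29.5% in Mki67-/- small pre-B and at 10.9, 8.3, 7.0 and 8.1% in pro-B lists. In Hk1, which encodes the glycolytic enzyme hexokinase 1, the member was at 62.5, 40.3, 58.9 and 38.8% in Mki67-/- small pre-B lists. Its pro-B places were 11.2, 10.5, 8.7 and 10.8%, and its pre-pro-B places 89.2, 45.4, 68.7 and 86.9%. The member near Cryba4 had the same order, with 5.3 to 8.1% in pro-B and 44.9 to 93.1% in pre-pro-B lists. Both stood earlier in each pro-B list than in any pre-pro-B list, as did 21.3% of all regions with a peak in 8 of 8 Mki67-/- progenitor libraries.

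Members near genes of chosen lists were counted within 10 kb of the gene, beside all protein-coding genes, where 1793 of 29540 progenitor-open regions (6.07%) were members. The lists were compiled with earlier results of these data known, and their shares were not tested. Stem and multipotent progenitor genes stood highest: 11 of 62 progenitor-open regions (17.7%) were members, at 10 of 20 genes. They lay at Meis1, Hlf, Mecom, Hoxa7, Hoxa9, Cd34, Mycn, Prdm16, Hhex and Myb. Of the 11 regions, 3 had a peak in 0 of 4 Mki67-/- small pre-B libraries and 2 in 4 of 4.

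Meis1 is a homeobox partner of Hox proteins in stem cells, and its member (chr11:18957473-18958379) lay in the gene 60590 bp from the start. It stood at 19.9, 27.1, 19.8 and 30.3% in Mki67-/- pre-pro-B lists and at 82.9, 82.0, 47.0 and 55.5% in pro-B lists. In small pre-B it was found in 1 of 4 libraries, at 90.6% (exact permutation p = 0.0182, adjusted p = 0.326). The region shared by the flanks of Hoxa7 and Hoxa9, at an annotated start of Hoxa3, behaved alike, with 22.8 to 28.0% in pre-pro-B, 40.3 to 65.4% in pro-B and 1 small pre-B peak at 95.8%. Mycn, a growth-promoting transcription factor, had its member at 35.2 to 54.8% and 38.7 to 52.1% in the progenitor stages and 1 small pre-B peak at 91.6%. For these regions the small pre-B place, from 1 library each, was later than all progenitor places. The share of all regions with this order was not counted.

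Early B-lineage genes had members at 9 of 26 genes and in 10 of 147 progenitor-open regions (6.80%), near the share for all genes. Genes of the pre-B receptor had 3 of 75 (4.00%) and those of light-chain recombination and the small pre-B stage 1 of 65 (1.54%). Cd79a and Cd79b encode the signalling chains of the B-cell receptor. The member within 10 kb of Cd79a lay inside Arhgef1 (chr7:24907017-24907673). It had a peak in 8 of 8 Mki67-/- progenitor libraries, at 42.0, 48.1, 35.6 and 54.8% in pre-pro-B and 37.6, 39.6, 35.4 and 45.8% in pro-B, and in 0 of 4 small pre-B libraries (exact permutation p = 0.00202, adjusted p = 0.0671). The Cd79b member, which also lay inside Scn4a (chr11:106318560-106319385), was at 54.2, 68.3 and 58.6% in 3 of 4 small pre-B libraries, after 25.3, 27.5, 22.6 and 22.7% in pro-B.

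The member at the Rag locus lay inside Rag2, a subunit of the V(D)J recombinase, and at the start of Iftap, a gene on the opposite strand (chr2:101628216-101629230). It was 9022 bp from Rag1. Places in the Mki67-/- pre-pro-B lists were 6.6, 7.6, 6.4 and 9.5%, and the WT range was 6.3 to 7.9%. In pro-B cells it had a peak in 0 of 4 Mki67-/- libraries, while the 4 WT libraries had one at 70.8, 77.0, 76.0 and 95.3%, the weak end of those lists. The pro-B difference between genotypes was not tested, because the rule fixes the WT value.

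A small group of members was missing from a whole progenitor stage of Mki67-/- cells. In Mki67-/- pro-B cells 17 members had a peak in 0 of 4 libraries, and 13 of these (0.513% of the members) had one in 4 of 4 Mki67-/- pre-pro-B libraries. Over all 36964 regions in 8 of 8 WT progenitor libraries, 93 (0.252%) had this pattern. Named by the nearest gene, the 13 members include Nabp1, Eif4g3, Xrcc4 (an end-joining factor), Trat1, Apobr and the Iftap region inside Rag2. In Mki67-/- pre-pro-B cells 8 members had a peak in 0 of 4 libraries, and 3 of these, nearest Zfhx3, Neurog1 and Smim41, had one in 4 of 4 Mki67-/- pro-B libraries (0.118% of the members, against 29 or 0.0785% over all these regions). WT cells had all of them by the rule, so the difference was not tested, and these genes were picked after their values were seen.

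Genes of the interleukin-7 receptor and Jak-Stat5 path, the main growth signal of pro-B cells, had members in 5 of 70 progenitor-open regions (7.14%). In Stat5b, a transcription factor of that path, the member stood at 23.9, 26.1, 15.5 and 21.6% in Mki67-/- pre-pro-B lists, at 90.3, 98.2, 90.4 and 81.0% in pro-B and in 0 of 4 small pre-B lists (exact permutation p = 0.00202, adjusted p = 0.0671). Near Socs3, a feedback inhibitor of cytokine signalling, the member kept a peak in all 4 Mki67-/- small pre-B libraries at 71.7, 55.1, 69.1 and 73.4%, after 14, 24.6, 16.1 and 17.8% in pro-B. The Jak1 member was in 3 of 4. Cell-cycle genes had 4 of 75 (5.33%), at Cdk6, E2f2, Mycn and Myb. The Cdk6 member, in a kinase gene of the G1 phase, stood earlier in pro-B (36.8, 44.1, 33.1 and 36.1%) than in pre-pro-B lists (68.6, 77.1, 74.6 and 81.8%) and appeared in 2 of 4 small pre-B lists at 92.8 and 90.6%.

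Adhesion and homing genes had 5 of 54 (9.26%), within 10 kb of Itgb7, Selplg, Cd47, Ccr7 and Spn. The members counted for Itgb7 and Selplg lay inside Zfp740 and Coro1c. Cd47 encodes the signal that restrains uptake by macrophages, and its member was at 41.7, 46.5, 32.5 and 27.0% in Mki67-/- pre-pro-B, at 54.9, 65.0, 51.3 and 53.6% in pro-B and absent from all 4 small pre-B lists (exact permutation p = 0.00202, adjusted p = 0.0671). Genes of other lineages were also present: 4 of 48 regions (8.33%) for T, NK and innate lymphoid genes, 3 of 39 (7.69%) for myeloid, 5 of 64 (7.81%) for plasmacytoid dendritic and 1 of 47 (2.13%) for mature B-cell genes, the last at Cd86. At erythroid and megakaryocyte genes 0 of 34 regions were members, which allows a share of up to 8.82%.

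The start of Lyz2, a lysozyme gene of myeloid cells, stood at 89.8, 73.0, 57.6 and 99.9% in Mki67-/- pre-pro-B, at 56.3, 73.5, 78.3 and 60.5% in pro-B and at 96.6% in 1 of 4 small pre-B lists. Members at Bcl11b, a T-cell factor, near Mpo, a neutrophil enzyme, and near Ctsg had a peak in 1 of 4 small pre-B libraries, and those near Klrb1c and Thy1 in 2. The member near Mpo lay inside Lpo. Irf7 encodes a factor of the interferon response, and the member close to it, inside Cdhr5, stood at 35.2, 25.9, 25.0 and 41.2%, then at 60.7, 92.9, 79.1 and 79.9%, then in 0 of 4 lists over the 3 stages of Mki67-/- cells (exact permutation p = 0.00202, adjusted p = 0.0671). In all, 1868 of 21631 protein-coding genes (8.64%) had a member within 10 kb, 1603 of them only 1. Snx29 had the most, with 6 of its 26 progenitor-open regions. Ephb2, Msra, Samd4 and 1700025G04Rik had 5 each, of 13, 11, 12 and 9. These 5 genes are 436, 189, 333, 223 and 207 kb long in the order named.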

How the data were processed

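The submitters' processing notes name mm10, Trimmomatic, MACS2, deepTools, DiffBind and DESeq2; their roles and versions are not given in the sources used here. One narrowPeak list per library was deposited. The authors' score is a whole number, 10 times the deposited -log10 q. The deposited fold enrichment, a ratio over the local background, and the deposited -log10 p describe the summit. The lowest -log10 q lay at 2 in each list, so absence means a q above 0.01. Values come from separate calls per library. They were used to rank within a list, to recover the background coverage and, as an alternative, for a -log10 q threshold.

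Overlapping or touching entries were merged on chromosomes 1 to 19 and X (numpy 2.4.6, pandas 2.3.3, scipy 1.17.1), joined over 24 libraries, and an overlap of 1 bp with a peak counted as presence. Background coverage was the most frequent background that reproduced fold and p to within 0.01 for 3000 summits. Genes and start sites were from RefSeq GRCm38.p6, with starts for 17274 of 21631 protein-coding genes; chromosome 18 was not used for starts. The exact permutation test ran over 495 assignments. Of 220 list entries 218 matched. Regions were named by strength in WT progenitors (10), strength in Mki67-/- small pre-B libraries (8), gene list (up to 3) and number of members (5 genes). A strong member and a marker gene are not reported here. The members, lists and tests were chosen with earlier results of these data known. Alternatives were a -log10 q threshold, list length, overlap, a filter on regions, stages and left-out libraries.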

Additional observations from a re-analysis of the deposited data

Results flagged for a closer look

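Of 68 sets of 4 libraries examined for a value far from the other 3, 3 stood out, and chance gives about 1 in 20. Mki67-/- pre-pro-B replicate 4 had a peak at 94% of the regions open in all 3 WT stages (98.5 to 99.5% in the others) and at 74.8% of those open only in WT pre-pro-B cells (92.5 to 96% in the others). Mki67-/- small pre-B replicate 1 had a peak at 56.9% of the regions open only in WT small pre-B cells, against 79.6 to 83.6% in the others. Both libraries had the lowest background coverage, 1.86.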

How the results depend on the processing

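The number of members was 1069 with the 40000 strongest peaks and 2536 to 2860 without 1 library. Calls in the Mki67-/- libraries numbered 372 with the 40000 strongest peaks and 0 in the other alternatives run. With the replicate block, in which stage was permuted within label number, the 0 says nothing about stability, because the smallest p of this exact permutation was 0.0123 (adjusted p = 0.410). The same holds without 1 Mki67-/- small pre-B library (smallest p = 0.00606, adjusted p = 0.325 to 0.443), without both libraries of lowest background coverage (smallest p = 0.00833, adjusted p = 0.416) and against pro-B only (smallest p = 0.0286, adjusted p = 0.230), again exact permutations. It also holds without 1 Mki67-/- pre-pro-B or pro-B library (exact permutation, smallest p = 0.00303, adjusted p = 0.0769 to 0.0903). The 0 is no more informative for the -log10 q thresholds, the overlap and the filters on regions. Their smallest exact permutation p was 0.00202, with an adjusted p of 0.0546 to 0.0993. Leaving out a WT library cannot change this test, which uses Mki67-/- libraries only. Deviations of same-numbered libraries correlated at -0.0213 to 0.00880 in Mki67-/- and -0.0345 to 0.0271 in WT cells. These values show no pairing by label number, but cannot tell if such libraries came from the same mouse. Members with a peak in 0 of 4 Mki67-/- small pre-B libraries numbered 510 with the 40000 strongest peaks (47.7% of members) and 1075 to 1389 without 1 library. Members with a peak in all of these libraries numbered 46 at a -log10 q of at least 10, 67 where peaks had to cover 0.5 of the region, 135 to 422 without 1 library, and 422 without both libraries of lowest background coverage, an alternative chosen after seeing the data. A filter of at least 8 of 12 libraries, also chosen later, is included among the alternatives above. Of 64 named regions present among the 40000 strongest peaks, 0 turned in direction and 10 passed the test, while Hk1 and Cryba4 had a difference in share of 0.375 there, against 0 with all peaks. Read depth is unknown, so a missing peak in a library of low coverage cannot be told apart from closed chromatin.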

Other observations

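The share of WT progenitor-open regions that were members differed between chromosomes, from 4.77% on chromosome 19 and 4.88% on chromosome X to 9.23% on chromosome 12, against 6.86% overall. Of the 135 members with a peak in 4 of 4 Mki67-/- small pre-B libraries, 3 (2.22%) lay within 10 Mb of Mki67.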
